A study of Mus musculus with 4 samples.

Results

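Surface markers by which mesenchymal and other progenitors are recognised were followed on 4 arrays of mouse cardiac mesenchymal progenitors (CMPs). The members were 10 genes, Kit, Pdgfra, Pdgfrb, Thy1, Eng, Nt5e, Cd34, Cd44, Vcam1 and Abcg2, taken by name from the probe annotation of the arrays. The rule used names and no measured value, but the panel was chosen with earlier results of these data known. They were 10 of the 16658 genes measured, and 15 of the 55681 probes carried their names. Of these 15 probes, 14 were well above background on at least 1 array and were kept, and the other was 1 of 4 probes for Cd44. CMPs came from hearts of C57BL/6 mice aged 10 to 16 weeks, the atria by the methods, and were size fractionated to obtain cells carrying the Sca-1 antigen. They were grown with serum and bFGF, at 40 ng/ml by the labels and at a lower concentration by the methods. The CMP control was untreated and is labelled day 0. The other cells, OSKM-CMPs, received Sendai virus carrying Oct4, Sox2, Klf4 and c-Myc and were collected at day 4, day 6 and day 8. By the methods, transduced cells were moved from growth medium to reprogramming medium at day 0, 24 h after transduction. Whether the CMP control saw that medium is not given in the sources used here. Since untreated cells were sampled once, effects of time in culture, medium, virus and factors cannot be told apart. Neither the number of mice pooled nor a count of cultures is given.

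Proteins of these genes sit on the cell surface, and subsets of them are used to recognise mesenchymal or other progenitor cells. By the paper, the surface antigens of CMPs resembled those of mesenchymal stem cells, apart from CD73 (encoded by Nt5e) and CD34. Kit, Pdgfra and Pdgfrb are receptor tyrosine kinases, and Eng (endoglin, CD105) is a co-receptor for the TGF-beta family. Thy1 (CD90), Cd44, Vcam1 and Cd34 are glycoproteins of adhesion, Nt5e (CD73) is an enzyme that makes adenosine outside the cell, and Abcg2 is a transporter that pumps dyes and drugs out of it. In the heart, Pdgfra marks fibroblasts and interstitial progenitors, Pdgfrb marks pericytes, and Eng and Cd34 are also found on endothelium, so no single member defines the cell type.

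Each condition had 1 single-colour array, all 4 on 1 slide, and no condition had a replicate, so no test between conditions was made. Values are the background-subtracted Cy3 signal of a probe. Differences are on the log2 scale after the 75th percentile of each array (a signal of 389.3, 388.5, 406.4 and 410.9 from control to day 8) was subtracted. The error beside a difference is 1 SD from the error model of the scanner software. It covers the array only and not cultures or RNA preparation. It treats spots and probes as independent, so it shrinks with their number and leaves out any disagreement among them. A change was counted when it was at least 2-fold. No spot was saturated. The share of probes well above background ran from 56.6% to 59.6%, and the dimmest signal so called lay between 8.53 and 10.73. Signals of different probes do not share a scale, so levels are ordered within a gene only. In such bulk RNA, fewer cells carrying a marker and less RNA per cell cannot be told apart.

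The panel did not move as 1 group. At day 8, Nt5e was at least 2-fold higher than in the CMP control, Thy1, Eng and Kit were at least 2-fold lower, and the other 6 members lay within 2-fold. At day 4, Nt5e and Pdgfra were counted as higher (2 of 10) and Thy1 and Eng as lower (2 of 10). Among all 16658 genes, 12.1% were higher and 9.57% lower by that measure, 21.6% in all, beside 4 of the 10 members. At day 6, 1 member was higher and 2 were lower, against 13.0% and 11.4% of all genes (24.5% in all). The day 8 counts of 1 higher and 3 lower stood beside 14.4% and 11.6% (26.0% in all). With 10 members, these counts differ from the background shares by a few genes, and nothing particular to the panel is read from them. The median difference of the members was -0.40, -0.63 and -0.58 in order of day, where that of all genes was -0.01, -0.04 and -0.03. The median size of the difference, whatever its direction, was 0.78, 0.84 and 0.79 for the members and 0.41, 0.46 and 0.50 for all genes. These 3 comparisons share the control array.

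**Figure D1:**
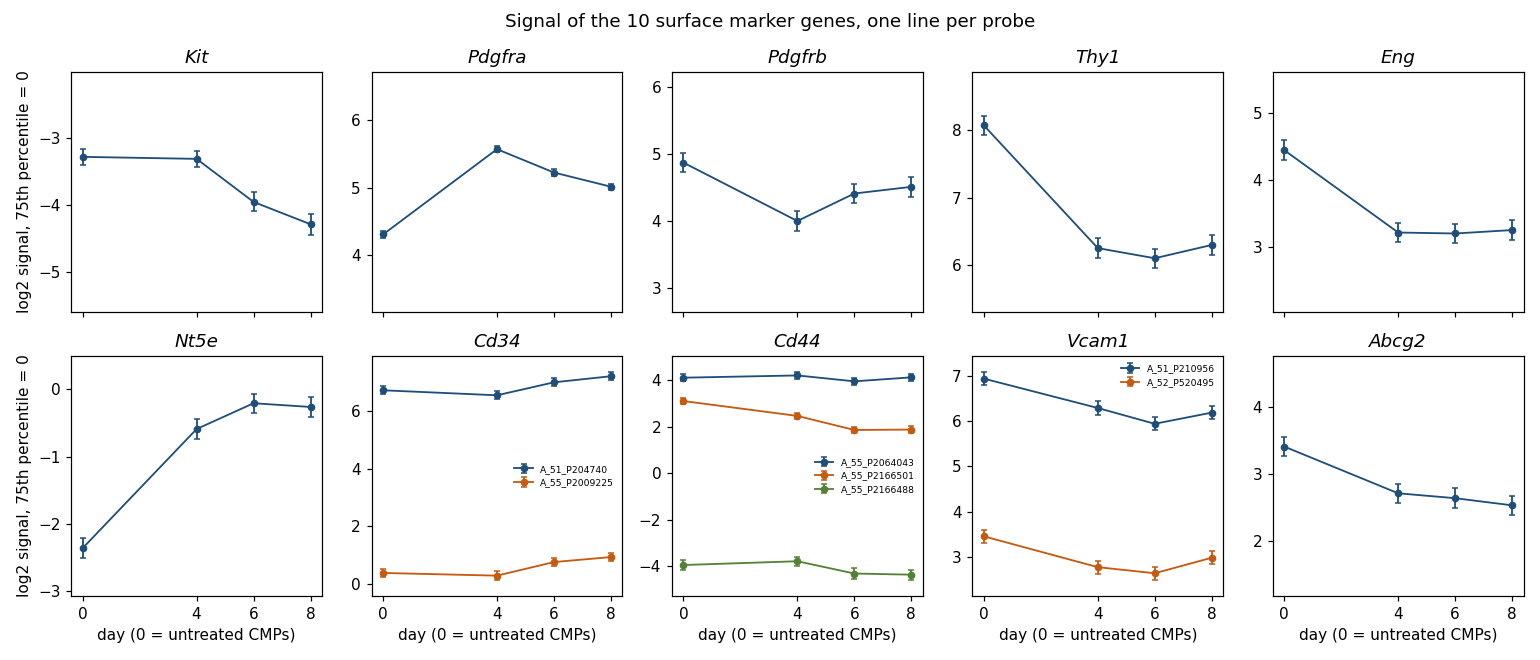
Signal of each kept probe of the 10 members (y axis, log2 with the 75th percentile of the array at 0) against day (x axis, 0 for untreated CMPs). Points are single arrays, bars are 1 SD of the error model within an array, and panels of genes with several probes span a wider range than the others. Thy1 and Eng dropped by day 4 and stayed low, Nt5e climbed from -2.36 to -0.26, and the brightest Cd44 probe stayed near 4.1.

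**Figure D2:**
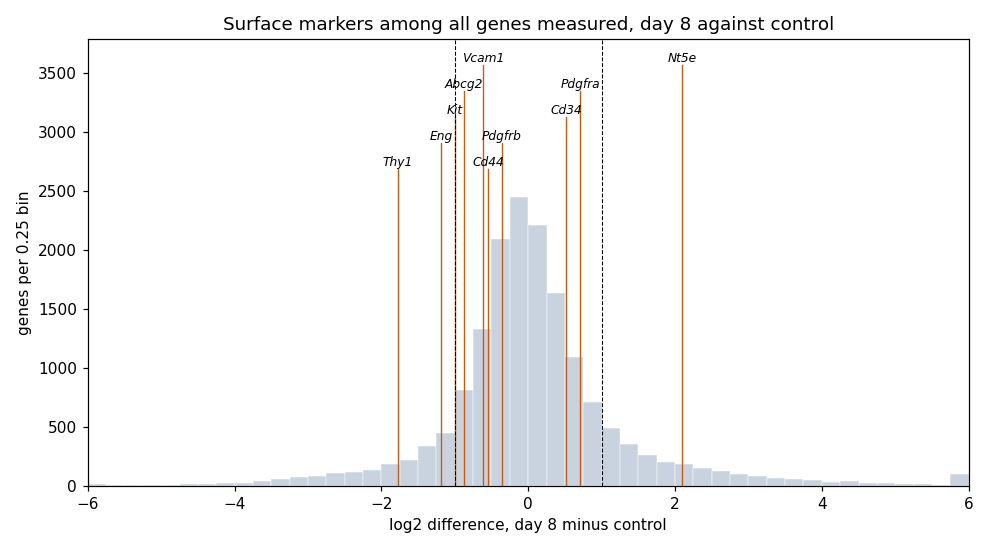
Histogram of the log2 difference between day 8 and the CMP control for 16658 genes (bins of 0.25, with 98 genes beyond 6 in size placed in the end bins), with the 10 members as vertical lines of no meaning in height. Dashed lines stand at a 2-fold change. Of the members, 6 lie between the dashed lines, Kit lies at the lower line, Thy1 and Eng lie below it and Nt5e lies above the upper one.

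Promoter sequence is shown for Nt5e, Pdgfra and Eng, the members counted as changed at day 4 whose start sites the RefSeq table holds. Each window is the 250 bases before the RefSeq start on GRCm38.p6, 5′ to 3′. Capitals mark a GC box (GGGCGG) or a CACCC box (CCACCC), read on both strands.

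Nt5e, chr9:88327359-88327608, plus strand: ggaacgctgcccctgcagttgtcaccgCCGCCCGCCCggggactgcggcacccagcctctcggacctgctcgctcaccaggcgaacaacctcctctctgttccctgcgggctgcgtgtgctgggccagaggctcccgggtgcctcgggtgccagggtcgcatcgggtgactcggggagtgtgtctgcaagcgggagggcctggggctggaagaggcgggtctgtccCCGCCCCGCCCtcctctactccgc
Pdgfra, chr5:75152001-75152250, plus strand: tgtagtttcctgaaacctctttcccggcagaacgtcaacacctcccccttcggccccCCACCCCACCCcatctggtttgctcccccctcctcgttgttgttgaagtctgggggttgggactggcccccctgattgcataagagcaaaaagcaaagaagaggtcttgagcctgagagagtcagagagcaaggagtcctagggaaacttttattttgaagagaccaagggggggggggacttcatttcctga
Eng, chr2:32646345-32646594, plus strand: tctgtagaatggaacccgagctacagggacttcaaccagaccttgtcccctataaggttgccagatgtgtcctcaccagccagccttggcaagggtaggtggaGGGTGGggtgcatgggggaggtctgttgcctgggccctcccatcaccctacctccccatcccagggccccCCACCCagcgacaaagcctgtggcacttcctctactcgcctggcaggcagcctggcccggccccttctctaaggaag

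The Nt5e window held 4 GC boxes, in overlapping pairs, and no CACCC box, and its GC content was 72.0% against a median of 52.4% over all windows. The windows of Pdgfra and Eng held 2 CACCC boxes each and no GC box. Of all 32851 windows of this length, 32.7% held a GC box and 28.1% a CACCC box, so neither match is rare. Windows were found for 7 of the 10 members, and none was found under the names Pdgfrb, Thy1 and Vcam1. The 7 members had 10 windows in all, since Kit and Abcg2 have several starts. None of the 10 held the E-box CACGTG, to which Myc and Max bind, the octamer ATGCAAAT or TATAAA, which 6.02%, 1.6% and 12.4% of all windows held. The Cd34 and Cd44 windows held none of the 5 motifs. A match describes letters only and no binding was measured.

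Among the receptor kinases, Pdgfra was higher on every day after transduction, whereas Pdgfrb was lowest at day 4 and nearer the control afterwards. Pdgfra, a receptor for chains that include PDGF-A and PDGF-C, was read by 10 spots of 1 probe (mm9, chr5:75593888-75593947). Its signal was 7683 in the CMP control and 18480, 15190 and 13270 on days 4, 6 and 8. The control was the lowest and day 4 the highest. Control spots ranged from 7123 to 8132 and did not overlap those of any later day, the lowest of which was 12430. The log2 difference from the control was 1.27 ± 0.06, 0.92 ± 0.06 and 0.71 ± 0.06 in order of day, so the rise was counted at day 4 alone. Quantile normalization put day 6 at 1.08, above the threshold. At day 4, 9.51% of all genes had a larger value, and at day 8 19.4% did.

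Pdgfrb, a receptor for PDGF-B and PDGF-D chains, had 1 probe (A_55_P1957249). Its signal was 11370 in the CMP control, dropped to 6215 at day 4, and was 8634 and then 9349 on days 6 and 8. Day 4 was the lowest array, and the differences from the control were -0.87 ± 0.20, -0.46 ± 0.20 and -0.36 ± 0.20. Day 8 lay within 2 SD of the control and of day 6. No day reached 2-fold, but with the median of the array as the scale day 4 read -1.01, where all genes shift by -0.14 at that day. Quantile normalization made the falls smaller, with days 4, 6 and 8 at -0.72, -0.28 and -0.16.

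Kit, the receptor for stem cell factor and a marker of mast cells and of some cardiac progenitors, was dim on every array (mm9, chr5:76052394-76052453, 2 spots). From the CMP control to day 8 its signal was 39.94, 39.03, 26.19 and 21.03. The control and day 4 lay within 2 SD of each other, as did days 6 and 8. At day 8 the 2 spots read 18.40 and 24.04, below both control spots at 39.35 and 40.52. At day 4 they read 33.41 and 45.6, on either side of the control spots. The SD between spots was 0.32 at day 4 and 0.27 at day 8, against 0.12 and 0.16 from the error model for their mean. The differences from the control were -0.03 ± 0.17, -0.67 ± 0.19 and -1.003 ± 0.196, and the last sits on the 2-fold line. After normexp background correction with quantile normalization it was -0.42, which ends the call. Quantile normalization without normexp gave -1.28 and the array median gave -1.27, both beyond 2-fold.

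The ligands of these receptors did not follow them in any single direction. Kitl, which encodes stem cell factor, gave a signal of 1320, 1480, 1450 and 1480 from control to day 8, and its difference at day 8 was 0.08 ± 0.20. Pdgfc, a PDGF chain that binds Pdgfra, gave 288, 1070, 1470 and 1900, a difference of 2.64 ± 0.20 at day 8. Pdgfa was lower by day 8, at -0.55 ± 0.14. For the chains read by Pdgfrb, Pdgfb was dim throughout (0.20 ± 0.21 at day 8), whereas Pdgfd went from 417 to 147 by day 4 and stood at 255 (-0.79 ± 0.20) at day 8. Of the 9 ligands and related kinase genes in this list, Pdgfc was the 1 counted as higher at day 8 and Csf1, the macrophage growth factor, at -1.92 ± 0.10, the 1 counted as lower. The median of the list was 0.08. Day 8 counts in this and the later lists stand beside 14.4% of all genes higher and 11.6% lower, and no excess is read from them.

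Eng was lower on all 3 days, by about the same amount. Its signal (mm9, chr2:32537268-32537327) was 8476 in the CMP control, against 3616, 3745 and 3922 on the later days. The control stood apart, and the later arrays lay within 2 SD of each other. The differences were -1.23 ± 0.20, -1.24 ± 0.20 and -1.19 ± 0.20, and at day 8 9.51% of all genes were lower still. Eng works beside the type I receptor Acvrl1 (ALK1), whose signal was 12600 in the control and then 3680, 3000 and 2920. Acvrl1 fell by 2.19 ± 0.20 at day 8. Gdf2 encodes the ligand BMP9 that both bind, and no array read its probe well above background.

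Among the 19 genes measured in the list of TGF-beta receptor partners, 8 were at least 2-fold lower and 2 higher at day 8. The shares of all genes were 11.6% and 14.4%, and the list median was -0.65. The largest falls were in the ligand Bmp4 (-3.24 ± 0.20), in Acvrl1, given above, and in the ligand Tgfb1 (-1.98 ± 0.06), followed by the inhibitory Smad7 (-1.92 ± 0.20). Smad6, another inhibitory Smad, and Id1 and Id3, which are transcriptional targets of BMP signalling, also passed 2-fold: Id3 was at -1.81 ± 0.20 and Id1 at -1.20 ± 0.20. The 2 that rose were Bmp2 (1.95 ± 0.21) and Tgfbr3 (1.37 ± 0.20), which encodes betaglycan, the other large co-receptor of the family. Betaglycan and endoglin transcripts thus moved in opposite directions on these arrays. Of the signalling receptors besides Acvrl1, Bmpr2 (0.25 ± 0.20) and Tgfbr2 (0.24 ± 0.14) lay within 2 SD of the control, while Tgfbr1 (-0.52 ± 0.16) and Acvr2a (0.71 ± 0.20) lay beyond 2 SD in opposite directions, short of 2-fold.

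Thy1 had the largest fall of the panel. Its signal (mm9, chr9:43856591-43856650) was 104900 in the CMP control but 29520, 27800 and 32240 in OSKM-CMPs on days 4, 6 and 8. The control stood far above the rest, and days 4, 6 and 8 could not be ordered, since neighbours lay within 2 SD. The differences were -1.83 ± 0.20, -1.98 ± 0.20 and -1.78 ± 0.20, which left 5.41% of all genes lower at day 8. Thy1 remained a bright probe at every time. Among 13759 genes compared, Grk5, Tnfrsf11b and Cdr2 had the 3 differences closest to those of Thy1. Their Euclidean distances were 0.05, 0.09 and 0.11 on the log2 scale. These distances are smaller than the error of a single difference, so which genes rank closest is not settled. Thy1 binds integrins on neighbouring cells. Of its 8 measured partners, 1 passed 2-fold at day 8: Itgb5, at -1.36 ± 0.20. Itgav read -0.74 ± 0.14, and Itgb3 read -0.28 ± 0.15 with its 2 probes at -0.77 and 0.21.

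Cd44, the main receptor for hyaluronan, gave different answers at different probes. The first 30 bases of the 2 bright probes, in the order of the array file, are shown because they read separate places of the same gene on mm9.

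A_55_P2064043, chr2:102651398-102651457, minus strand: tcagaggcagctggcatcctttgttttgtt
A_55_P2166501, chr2:102654278-102654337, minus strand: gacgagacccggaatctgcagagtgtggac

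The probe nearest the end of the gene, A_55_P2064043, read 6733, 7184, 6304 and 7178 from control to day 8, and its difference at day 8 was 0.01 ± 0.20. The probe that lies 2880 bases upstream in the direction of transcription, A_55_P2166501, read 3359, 2149, 1479 and 1514 on the same arrays. That probe was lower each day by more than its error, with differences of -0.64 ± 0.20, -1.25 ± 0.20 and -1.23 ± 0.20. A dim probe at 26573 bases (A_55_P2166488) read 25.32, 28.26, 20.51 and 20.03, which is -0.42 ± 0.29 at day 8. The probe at 21247 bases (A_55_P2166486), the 1 not kept, read between 7.28 and 11.03. The mean over the 3 kept probes was -0.54 ± 0.14 at day 8, an error that leaves out the disagreement among them. Cd44 was thus not counted as changed, and its value depends on the probe taken. Which transcripts each probe detects was not tested.

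In the list of 16 hyaluronan genes and partners of Cd44, 5 were counted as higher and 5 as lower at day 8, and the median was 0.06. Of the hyaluronan synthases, Has2 read 1410, 302, 265 and 184 from control to day 8, a difference of -3.02 ± 0.21, whereas Has1 read 86.6, 162, 221 and 277, a rise of 1.60 ± 0.21. Has3 was not well above background in the control or at day 8. Hyal1, a hyaluronidase, was higher at 1.81 ± 0.20. Hmmr, the other hyaluronan receptor of the list with a bright probe, was at -1.70 ± 0.20, and Msn (moesin), which ties Cd44 to actin, at -1.43 ± 0.20. Cd74, a binding partner of Cd44 in MIF signalling, was higher by 4.38 ± 0.32, from a dim 13.7 in the control to 303 at day 8. Lyve1, the hyaluronan receptor of lymphatic endothelium, was at least 5.62-fold lower, since it was not well above background after the control (measured 55.2 in the control and 2.39 at day 8). Mmp9 was at least 1.62-fold higher, a bound that falls short of the 2-fold by which it was counted.

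Vcam1, the endothelial and stromal ligand of integrin alpha4 beta1, was lower on each day at both of its probes. The brighter one (A_51_P210956, mm9, chr3:115813216-115813275) read 47790 in the CMP control and 30420, 24990 and 29980 on days 4, 6 and 8, and the other (A_52_P520495, chr3:115828953-115829012) read 4279, 2664, 2538 and 3254. Both placed the control highest and day 6 lowest. The mean differences of -0.66 ± 0.14, -0.91 ± 0.14 and -0.61 ± 0.14 stayed short of 2-fold. With the median of the array as the scale, day 6 read -1.04, where all genes shift by -0.13. Quantile normalization made the falls smaller, with days 6 and 8 at -0.73 and -0.39.

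Of the integrin chains that can bind Vcam1, Itga4 and Itgb1 were counted as lower at day 8, Itga9 was at -0.89 ± 0.20, and Itgb7 was counted as higher. Itga4 had a bright probe, which read 2480 in the control and then 434, 452 and 333, a difference of -2.97 at day 8. Its second probe was well above background in the control alone. Itgb1 fell by 1.35 ± 0.14, with both probes between -1.36 and -1.34. Itgb7 was at least 15.2-fold higher, being not well above background in the control and 154 at day 8. Of the 12 measured genes of the list of leukocyte adhesion, 6 were lower and 1 higher at day 8. The shares of all genes were 11.6% and 14.4%, and the list median was -1.12. Selp (P-selectin, -4.28 ± 0.08) and Icam2 (-2.71 ± 0.21), both found on endothelium, were among those lower. Mcam was at -2.38 ± 0.15, but its probes disagreed in size, at -4.14 and -0.61. Icam1 read 559, 558, 537 and 545, a difference of -0.12 ± 0.20.

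Cd34, a sialomucin of progenitors and endothelium, was the 1 member besides Nt5e and Pdgfra that stood above the control at day 8. From control to day 8 its bright probe (A_51_P204740, mm9, chr1:196787392-196787451) read 41390, 36600, 52340 and 61300. Its dimmer probe (A_55_P2009225, chr1:196785280-196785339) read 504.3, 471.6, 684.5 and 780.7. Both probes put day 4 lowest and day 8 highest, and the control lay within 2 SD of day 4, as did day 6 of day 8. The differences of -0.13 ± 0.14, 0.33 ± 0.14 and 0.52 ± 0.14 did not reach 2-fold. With the median of the array as the scale, Cd34 read 0.25 at day 8, within 2 SD of the control, where all genes shift by -0.27. The related sialomucins Podxl and Podxl2 were higher at day 8, by 3.55 ± 0.32 (14.8 in the control and 183 at day 8) and 1.93 ± 0.20. Cd164 read 0.21 ± 0.20, and Emcn (endomucin), which is found mostly on endothelium, was at least 5.23-fold lower, with a signal of 51.4 in the control and 4.74 at day 8.

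Nt5e had the largest rise of the panel. Its probe (mm9, chr9:88266616-88266675) read 75.73 in the CMP control and 258.1 at day 4, then 352.4 and 342.9 on days 6 and 8. The control was the lowest, and day 8 lay within 2 SD of both day 4 and day 6. The differences were 1.77 ± 0.21, 2.16 ± 0.21 and 2.10 ± 0.21, or 3.42-fold, 4.46-fold and 4.29-fold. At day 8, 5.94% of all genes had a larger value. After normexp correction with quantile normalization, which raises dim signals, the day 8 value was 1.41. Kazald1, Ngfr and Txnip had the 3 differences closest to those of Nt5e, at distances of 0.04, 0.09 and 0.13. As for Thy1, these are smaller than the error of a single difference, so the ranking is not settled.

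Nt5e makes adenosine from AMP, and other surface enzymes feed or drain that step. Of the 12 measured genes of the pathway, 2 were counted as higher and 3 as lower at day 8, and the median was -0.34. The 3 that were lower were Ada (-2.85 ± 0.20), which deaminates adenosine and read 3940 in the control and 578 at day 8, Alpl (-2.26 ± 0.22), a phosphatase that also makes adenosine, and the receptor Adora2b (-2.18 ± 0.15). Enpp3, a pyrophosphatase of nucleotides, was higher by 2.24 ± 0.21. The other counted as higher, the receptor Adora1, was not well above background before day 8, and its bound of at least 1.46-fold is below the threshold. Entpd1 (CD39), which makes the AMP that Nt5e uses, was not well above background in the control or at day 8. Slc29a1, a nucleoside transporter, read -0.70 ± 0.20 and Adk, which phosphorylates adenosine in the cell, -0.49 ± 0.14.

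Abcg2 was lower on each day without reaching 2-fold. Its probe (mm9, chr6:58642312-58642371) read 4144 in the CMP control and 2554, 2539 and 2386 on the later days. The control was the highest, and neighbours among the later days lay within 2 SD. The differences were -0.70 ± 0.20, -0.77 ± 0.20 and -0.87 ± 0.20. With the median of the array as the scale, day 8 read -1.14, where all genes shift by -0.27. Quantile normalization put day 8 at -0.74. Among 10 other efflux transporters measured, 4 were higher at day 8 and 2 lower. Those higher were Abcb1a (2.30 ± 0.21), the P-glycoprotein gene, Abcc4 (1.70 ± 0.20), Abcc5 (1.39 ± 0.09) and Abca1 (1.19 ± 0.20), and the lower ones were the sterol transporter Abcg1 (-2.42 ± 0.21) and Abcc3 (-2.26 ± 0.21). Abcb1b, the second P-glycoprotein gene, read 0.46 ± 0.20, and cross-hybridisation between the closely similar copies was not tested.

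Thy1, Eng, Nt5e, Vcam1 and Abcg2 had come most of the way to their day 8 levels by day 4. In contrast, Kit and Cd34 lay within 2 SD of the control at day 4 and beyond it at day 8. For Cd34 this depends on the scale, since with the array median it lay within 2 SD at day 8 as well. The Cd44 probes differed here too: A_55_P2166501 was at -0.64 ± 0.20 at day 4 and -1.23 ± 0.20 at day 8, while A_55_P2064043 changed by -0.08 ± 0.20 between those days. Between day 4 and day 8, 0 of 10 members changed by 2-fold, where 4.93% of all genes were higher and 4.1% lower (9.03% in all). The median difference was 0.04 for the members and -0.03 for all genes, and the median size 0.37 and 0.27. Kit had the largest difference, -0.97 ± 0.20, but after normexp correction with quantile normalization it was -0.34, smaller than those of Cd34, Pdgfrb and Pdgfra. Cd34 stood at 0.65 ± 0.14 (0.71 after that correction). Pdgfra at -0.56 ± 0.06 and Pdgfrb at 0.51 ± 0.20 moved toward the control level. Thy1, Eng and Vcam1 differed by 0.05 ± 0.20, 0.04 ± 0.20 and 0.05 ± 0.14 over that interval.

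**Figure D3:**
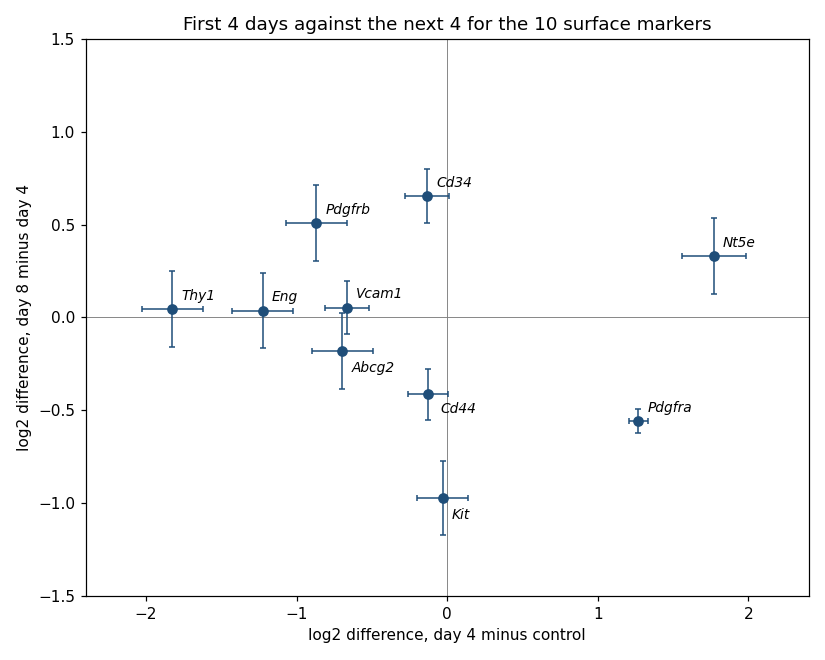
Log2 difference of the 10 members between the CMP control and day 4 (x axis) and between day 4 and day 8 (y axis), with bars of 1 SD of the error model within an array. Both axes use the day 4 array, so an error on it moves a point along a diagonal. The x values run from -1.83 (Thy1) to 1.77 (Nt5e) and the y values from -0.97 (Kit) to 0.65 (Cd34).

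The gene of the antigen that the cells are labelled as carrying rose. Ly6a, which encodes Sca-1, read 9790, 40000, 50700 and 66900 from control to day 8, a difference of 2.69 ± 0.20 at day 8. Every OSKM-CMP array was above the control. Of 23 other progenitor markers measured, Ly6a included, 9 were counted as higher and 7 as lower at day 8, with a median of 0.56. The largest rises were in Dlk1 (6.59 ± 0.16), a marker of preadipocytes, Anpep (3.76 ± 0.20), which is CD13, and Pi16 (3.74 ± 0.20), a marker of adventitial fibroblasts. The brighter of the 2 Dlk1 probes read 270 in the control and 35800, 40700 and 27700 afterwards. The dimmer one read 32.8 and then 4250, 4540 and 3290. The largest falls among genes above background were in Pdpn (podoplanin, -2.64 ± 0.14), Mcam and Nes (nestin, -1.70 ± 0.20). Itga6 rose by 1.64 ± 0.14, while Cd9 and Cd81, tetraspanins of many cell types, stood at -0.10 ± 0.20 and -0.27 ± 0.20. Dpp4 (CD26) was below that level on every array. Over all lists around the members, 109 of 120 genes were measured, and 26 were at least 2-fold higher and 32 lower at day 8, beside 14.4% and 11.6% of all genes. These lists were chosen for their relation to the members and with earlier results known, so no excess is read from that.

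**Figure D4:**
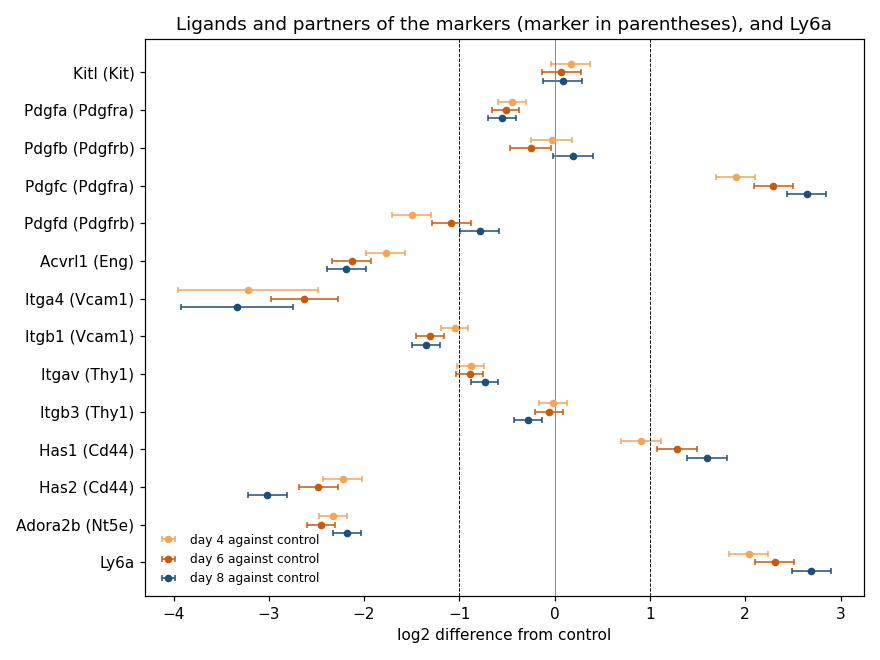
Log2 difference from the CMP control (x axis) of ligands, receptors and enzymes that act with the members, each named with its member, and of Ly6a, at days 4, 6 and 8. Bars are 1 SD of the error model within an array and dashed lines stand at 2-fold. Itga4 is the mean of 2 probes, 1 of which was below background after the control, so its value there is no exact fold. Pdgfc, Has1 and Ly6a lie to the right at day 8 (2.64, 1.60 and 2.69), and Acvrl1, Has2, Itgb1 and Adora2b to the left.

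Several members are shared with other cell types, and markers of those types also differed between arrays. All 16 fibroblast and stroma genes were above background on each array, and their summed signal lay between 994000 and 1220000. Here and below, such sums follow the brightest probes of a list, so they describe those probes more than the list. Col1a1 read -0.23 ± 0.20 at day 8 and Dcn 3.06 ± 0.20, while Tcf21, a factor of cardiac fibroblasts, was at -4.65 ± 0.21. Of the endothelial list, beside which Eng, Cd34 and Vcam1 stand, 11 of 12 genes were above background in the control and 7 at day 8, with the sum going from 5650 to 1930. Cdh5, which defines endothelium, was at least 11.9-fold lower and Flt1 at -2.69 ± 0.14, whereas Pecam1 read 58.2 and 66.0 (0.10 ± 0.16). Their part in the falls of Eng and Vcam1 was not tested.

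For smooth muscle and pericytes, which carry Pdgfrb, the number above background went from 7 to 10 of 11 and the sum from 240000 to 13700. Acta2 was at -5.09 ± 0.06 and Tagln at -4.78 ± 0.20, but the pericyte gene Rgs5 was at 2.45 ± 0.20. Mast cells carry Kit. Of the 8 names in their list, 3 were above background on each array, whereas the defining genes Cpa3 and Fcer1a were below it throughout, and Mcpt4 was at -4.35 ± 0.23 and Hdc at 4.99 ± 0.22, with sums of 830 in the control and 1840 at day 8. Leukocyte genes summed to between 1250 and 1540 on the 4 arrays, with 6 to 9 of 12 above background. Ptprc, which encodes the pan-leukocyte antigen CD45, read 14.8 in the control and 15.8 at day 8. Cardiomyocyte genes above background went from 4 to 7 of 10, with sums of 4810 and 1770, most of which was Tnnt2 (-1.60 ± 0.20). Of the 8 measured, 4 were counted as higher and 1, Tnnt2, as lower at day 8, with a median of 1.04. The 4 that rose were dim, with day 8 signals between 19.3 and 58.3. Of 12 adipocyte genes, 6 were above background in the control and 12 at day 8, and their sum went from 3870 to 252000. Pparg, the nuclear receptor of adipocyte differentiation, was at 3.84 ± 0.06 and Fabp4 at 5.78 ± 0.20. The part that cells of each kind had in the members' values was not tested.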

How the data were processed

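RNA of untreated CMPs and of OSKM-CMPs at days 4, 6 and 8 was measured on single-colour SurePrint G3 Mouse GE arrays, 1 array per condition on 1 slide, with 250 ng of RNA labelled. The authors scanned the arrays and deposited, per the file headers, Feature Extraction 10.7.3.1 files that give each spot a background-subtracted Cy3 intensity with its error and flags (the submitters' processing notes name 9.5.3). The authors' table from GeneSpring GX11 holds log2 values, which proved to be the log2 of that intensity with each array shifted by a constant. Growth medium held 40 ng/ml bFGF per the labels, and less by the methods.

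From the 62976 spots of an array, 3671 controls and 87 to 106 outlier spots were left out. The log2 intensity was averaged over spots of a probe and set relative to the array's 75th percentile. Kept were the 35544 of 55681 probes that stood well above background on 1 array or more, where a probe counts as such if at least 50% of its spots do. Names came from RefSeq tables of GRCm38.p6 (26762 probes by accession, 3819 by symbol, 639 by synonym, 24461 unmatched), positions from the array files on mm9. Of 16658 genes, 5015 had several kept probes and took their mean. Such a gene counts as above background on an array if all of its kept probes do. A gene below background on 1 side is given as a bound, against the higher of its own signal and the lowest signal well above background on that array. The difference of a gene between control and day 8 carried a median error SD of 0.20.

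The members and lists were chosen with earlier results of these data known. All members are named, with the values of each of their probes. From each list come up to 3 largest rises and falls at day 8 among genes above background on both arrays, and the direct ligands or receptors of members. From each cell type list come up to 3 genes above background. Other list genes (among them Bmpr2, Tgfbr1, Acvr2a, Itga9, Smad7, Tgfbr2, Smad6, Id1, Id3, Icam1, Slc29a1, Adk, Cd9, Cd81, Itga6, Abcb1b and Cd164) and the genes given as bounds were named after their values were seen. The closest genes are those with the smallest Euclidean distance over the 3 differences.

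The alternatives changed the threshold (1.5-fold), the scale (array median, quantile, or quantile after normexp with offset 50), the source (the authors' own log2 values), the filter (none, or well above background on each of the 4 arrays), the treatment of dim values (a floor) and the choice of probe (the brightest per gene). The steps were tested on simulated data. Python 3.11.15, numpy 2.4.6, pandas 2.3.3, matplotlib 3.10.9, R 4.3.3 and limma 3.58.1 were used.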

Additional observations from a re-analysis of the deposited data

How the results depend on the processing

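The number of arrays limits the precision: with 1 per condition, the spread between cultures is unknown, and dim probes (Kit and a Cd44 probe) lie close to background. No paired analysis was possible because arrays were single for every condition, which leaves nothing to pair and no test. At a threshold of 1.5-fold, 5 members in place of 2 were lower at day 4, 6 in place of 2 at day 6 and 5 in place of 3 at day 8, and 2 in place of 1 were higher at day 6 and at day 8. Between day 4 and day 8, that threshold counted 1 member as lower and 1 as higher in place of 0. Quantile normalization, with or without normexp, counted 2 members as higher at day 6 in place of 1. Quantile normalization without normexp, and the array median as the scale, each counted 1 lower between day 4 and day 8. The array median shifts every gene by -0.14, -0.13 and -0.27 at days 4, 6 and 8 and by -0.12 between day 4 and day 8. Under the other 7 alternatives that keep the 2-fold threshold, 247 of 280 differences of single members moved by less than their error and 32 by more. The remaining 1, Cd44 at day 8, was beyond 2 SD of the control and changed sign, to 0.0147 at its brightest probe. Many of the 280 could not move, so the 247 are no measure of stability. Every kept member probe was well above background on each array, so the floor and the stricter filter changed nothing. The authors' values are the same intensities with each array shifted by a constant. Dropping the filter could alter Cd44 alone, and the brightest probe only Cd34, Cd44 and Vcam1. Differences within 2 SD of 0 also changed sign: at the brightest probe, Cd44 at day 4 (from -0.13 to 0.10) and Vcam1 between day 4 and day 8 (from 0.05 to -0.10), and with the array median, Thy1, Eng and Vcam1 between day 4 and day 8 (to -0.08, -0.09 and -0.07). The counts of 26 and 32 list genes stayed within 1.5 times under each alternative. The causes were not tested.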
